A study of Mus musculus with 4 samples.

Results

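Chromatin accessibility was determined at Flt3, Cd34, Cd48, Cd27, Il7r, Csf1r and Csf3r, 7 genes of 21911 protein-coding genes in the annotation, in single long-term hematopoietic stem cells (LT-HSCs). The genes were chosen by name, and each was given a window of the gene body plus 5000 bp upstream on GRCm38. These windows held 32 of the 93513 peaks of the table, and 24 of the 32 had at least 20 counts. The study asked how open chromatin changes in HSCs during aging and between old HSCs with high and low surface CLCA3A1, a surface protein.

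The data were single-cell ATAC-seq, in which the Tn5 transposase cuts and tags accessible DNA in each nucleus. Cells came from C57BL/6JRj mice with no genetic change or treatment named in the labels. LT-HSCs were sorted as CLCA3A1high or CLCA3A1low by an antibody to that protein from animals of 22 to 28 months. A further pair of samples held LT-HSCs from young animals (3 to 4 months) and from old animals (22 to 28 months), not split by CLCA3A1. Each was 1 library of 10000 sorted cells, 2500 from each of 4 mice, and no group had more than 1 sample here. The young and old samples are titled rep 2, and no other replicate is among the 4 samples. The study defines LT-HSCs as LSK CD34neg CD135neg cells, where LSK stands for lineage-negative, Sca-1-positive and c-Kit-positive, and CD135 is the Flt3 protein. Absence of the Cd34 and Flt3 proteins was thus part of that gate.

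The labels of CLCA3A1high and CLCA3A1low cells name the table that was analyzed. It held 1454 cells whose barcodes end in 1 of 2 suffixes, 818 cells in barcode set 1 and 636 in set 2. Which suffix belongs to which sample is not labelled. Both sets are therefore given side by side without being assigned to CLCA3A1high or CLCA3A1low cells, and no p-value is given, since cells are not replicates. The table of young and old cells carries no peak names and was not used here. Set 1 had 13050952 counts and set 2 had 9820094, with medians per cell of 13358.5 and 12755 and a range over all cells of 224 to 136173. The sets had 0 barcodes in common. Of the nonzero values, 88.7% were even, as a fragment usually brings a pair of cut sites, so all intervals below cover counting error only and understate the full error.

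These proteins are surface molecules by which early blood cells are told apart. Flt3 is the receptor tyrosine kinase for FLT3 ligand and appears as stem cells give rise to multipotent and lymphoid-primed progenitors. Cd34 is a sialomucin, Cd48 a SLAM-family ligand of CD244, and both are used to separate mouse HSCs from their progeny. Cd27 is a TNF-receptor family member that binds CD70, and Il7r is the alpha chain of the interleukin-7 receptor of lymphoid progenitors. Csf1r and Csf3r are the receptors for M-CSF and G-CSF, which support monocytes and neutrophils. A peak is a stretch of DNA that the transposase cuts often, and such stretches mark promoters and other regulatory elements.

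The sequences shown are the central 300 bases of the intragenic peaks with the largest differences between the sets at Flt3 and Cd34, with a Flt3 peak of the opposite direction beside them, and the bases just upstream of the Cd48 start. All were read from the GRCm38 genome or, for Cd48, from RefSeq on GRCm38, and are printed 5′ to 3′ on the strand of the gene. Flt3 lies on the minus strand, Cd34 and Cd48 on the plus strand. Capitals mark short words searched on both strands: GAGGAA for PU.1, AGATAA for GATA factors, CATTCC for TEAD and TGTGGT for RUNX factors. The element 34.1 kb into Flt3 lies at chr5:147366286-147366585, the one 59.3 kb in at chr5:147341031-147341330 and the one 11.4 kb in at chr5:147388920-147389219. The element 4.9 kb into Cd34 lies at chr1:194943589-194943888 and the Cd48 stretch at chr1:171681742-171681991. The Flt3 element at 11.4 kb was chosen after its values were seen.
Flt3, 34.1 kb: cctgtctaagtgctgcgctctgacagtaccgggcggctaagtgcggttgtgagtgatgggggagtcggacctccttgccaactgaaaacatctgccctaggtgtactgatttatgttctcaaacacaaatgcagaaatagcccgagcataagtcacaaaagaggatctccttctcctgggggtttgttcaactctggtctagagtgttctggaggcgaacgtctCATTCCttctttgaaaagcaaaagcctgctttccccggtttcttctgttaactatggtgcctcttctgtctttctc
Flt3, 59.3 kb: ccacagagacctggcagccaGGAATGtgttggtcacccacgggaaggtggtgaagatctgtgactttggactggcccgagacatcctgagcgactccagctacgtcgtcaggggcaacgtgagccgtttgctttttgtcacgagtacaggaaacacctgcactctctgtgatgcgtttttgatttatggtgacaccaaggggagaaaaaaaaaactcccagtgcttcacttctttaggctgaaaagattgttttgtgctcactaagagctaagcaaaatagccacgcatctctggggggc
Flt3, 11.4 kb: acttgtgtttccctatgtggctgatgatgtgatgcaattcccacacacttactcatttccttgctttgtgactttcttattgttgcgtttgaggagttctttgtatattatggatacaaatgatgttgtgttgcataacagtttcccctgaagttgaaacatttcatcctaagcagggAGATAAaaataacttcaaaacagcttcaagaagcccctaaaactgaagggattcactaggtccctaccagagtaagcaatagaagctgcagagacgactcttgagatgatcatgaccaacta
Cd34, 4.9 kb: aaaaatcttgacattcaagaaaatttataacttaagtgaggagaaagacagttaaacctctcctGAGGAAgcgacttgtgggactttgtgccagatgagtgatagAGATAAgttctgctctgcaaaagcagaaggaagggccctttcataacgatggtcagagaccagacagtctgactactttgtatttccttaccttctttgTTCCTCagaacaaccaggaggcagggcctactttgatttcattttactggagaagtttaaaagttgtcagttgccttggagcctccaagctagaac
Cd48, upstream: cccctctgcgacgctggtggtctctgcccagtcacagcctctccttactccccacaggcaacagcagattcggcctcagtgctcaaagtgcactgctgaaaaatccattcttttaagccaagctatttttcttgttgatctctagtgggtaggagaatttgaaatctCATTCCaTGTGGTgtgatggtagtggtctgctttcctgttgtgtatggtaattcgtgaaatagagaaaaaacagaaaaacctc

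The genes differed widely in accessibility per length. Counts were scaled to a total of 1e6 (CPM) and divided by the length of each window in kb, over all cells. Cd27 was the most accessible per kb, with 3.90 CPM per kb (95% Poisson interval 3.64 to 4.17), above 87.3% of all protein-coding genes. Its window was the shortest, at 9.39 kb against 74.7 kb at Flt3. In total CPM, not divided by length, Flt3 was higher, with 105.4 against 36.6 at Cd27. Per kb, Cd27 was followed by Csf1r with 1.58 CPM per kb (1.4996 to 1.67), Flt3 with 1.41 (1.35 to 1.47) and Cd34 with 1.04 (0.96 to 1.12), whose intervals did not overlap. The median of all protein-coding genes was 0.81 CPM per kb. Cd48 with 0.61 CPM per kb (0.55 to 0.67) and Csf3r with 0.53 (0.48 to 0.60) were not distinguishable within counting error. The 12 genes of other tissues summed to 0.53 CPM per kb in set 1 and 0.51 in set 2, and the levels of Cd48 and Csf3r were close to that sum. The sum was uneven over the genes: Alb had 0 counts and Myh6 31, whereas Pax6 had 841, Sftpc 541 and Apoa1 504. Cd48 and Csf3r stood above 44.1% and 41.6% of all protein-coding genes.

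Il7r was close to closed. Its 1 peak, 58 bp wide and 0.41 kb downstream of the start, held 3 counts, all in 1 cell of set 2. That cell was 1 of 636 in set 2, or 0.16% of cells (95% Clopper-Pearson interval 0.0040 to 0.87%), and 0 of 818 cells of set 1 had a count, which allows a share of up to 0.37% at 3 counts of the total and of up to 0.45% by the Clopper-Pearson bound. The level in set 1 was 0 CPM, where a floor of 3 counts over the set equals 0.23 CPM. Set 2 was at 0.31 CPM, which equals the floor of 3 counts over that set. No fold is given, since each set was at or under its own floor.

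The sets differed most at Flt3 and Cd34. The Flt3 locus had 76.1 CPM in set 1 (95% Poisson interval 71.4 to 81.0) and 144.3 in set 2 (136.9 to 152.0). It was thus 1.90-fold higher in set 2 (1.75 to 2.06), or -0.92 as the log2 ratio of set 1 over set 2. Cd34 had 20.2 CPM in set 1 (17.9 to 22.8) and 39.4 CPM in set 2 (35.6 to 43.5), a 1.95-fold difference (1.66 to 2.29) and a log2 ratio of -0.96. At both genes the levels in set 2 lay well above those in set 1. Of the 16965 gene loci tested, 1.70% had a lower log2 ratio than Flt3 and 1.59% a lower one than Cd34.

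The other genes differed less. Cd48 had 15.5 CPM in set 1 (13.4 to 17.8) and 19.6 CPM in set 2 (16.9 to 22.5), a log2 ratio of -0.34 (-0.63 to -0.045). Cd27 had 33.9 CPM in set 1 (30.9 to 37.3) and 40.1 in set 2 (36.3 to 44.3), with a log2 ratio of -0.24 (-0.44 to -0.042). For Csf1r the levels were 53.8 CPM (49.9 to 57.9) and 63.3 (58.5 to 68.5), with a log2 ratio of -0.24 (-0.39 to -0.078). The interval of each of these ratios lay just below 0. Without the 57 cells of over 3 times the median depth, 39 of set 1 and 18 of set 2, these intervals reached past 0, with log2 ratios of -0.20 at Cd48, -0.21 at Cd27 and -0.094 at Csf1r. Csf3r had 12.8 CPM in set 1 (10.9 to 14.9) and 13.95 in set 2 (11.7 to 16.5), and its log2 ratio of -0.12 (-0.46 to 0.21) was not distinguishable from 0.

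All 6 genes with at least 20 counts were lower in set 1, with a median log2 ratio of -0.29, whereas the median over all tested gene loci was 0.0038. None was past 2-fold, against 1.49% of gene loci that were 2-fold or more lower in set 1 and 1.94% that were higher. When a peak was counted at most once in a cell, so that paired cut sites count once, the log2 ratio was -0.86 (-1.04 to -0.67) at Flt3 and -0.75 (-1.11 to -0.40) at Cd34. In set 1 Csf1r was more accessible per length than Flt3, at 1.47 CPM per kb (1.36 to 1.58) against 1.02 (0.96 to 1.08). In set 2 Flt3 had 1.93 CPM per kb (1.83 to 2.03) and Csf1r 1.73 (1.60 to 1.87), and these intervals overlapped.

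**Figure D1:**
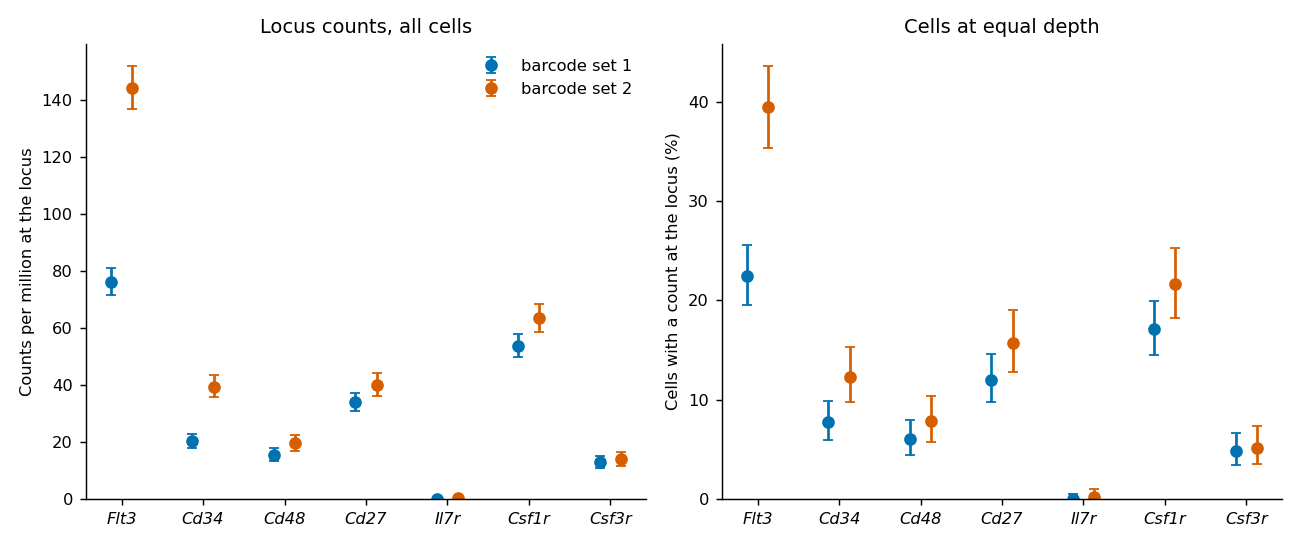
Accessibility of the 7 genes in barcode set 1 (blue) and barcode set 2 (orange). Left, CPM at each locus over all cells with exact 95% Poisson intervals; right, percent of cells with a count at the locus after thinning to 4899 counts per cell, with exact 95% Clopper-Pearson intervals. Flt3 stands highest and furthest apart between the sets, at 76.1 and 144.3 CPM, and Il7r lies at the bottom of both panels.

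The number of cells in which a locus was open was compared at equal depth. Each cell was thinned to 4899 counts, which left 749 cells of set 1 and 560 of set 2 and left out 69 and 76 shallower cells. A count at Flt3 was then found in 22.4% of cells in set 1 (95% Clopper-Pearson interval 19.5 to 25.6%) and 39.5% in set 2 (35.4 to 43.6%), and before thinning in 36.9% and 53.5%. At Cd34 the shares were 7.74% in set 1 (5.93 to 9.90%) and 12.3% in set 2 (9.71 to 15.3%), with 13.4% and 21.5% before thinning. The intervals of Flt3 did not overlap between the sets, whereas those of Cd34 overlapped slightly.

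For the remaining genes the intervals of the shares overlapped between the sets. Csf1r was open in 17.1% of thinned cells of set 1 and 21.6% of set 2, and Cd27 in 12.02% and 15.7%. Cd48 was open in 6.01% and 7.86%, and Csf3r in 4.81% and 5.18%. Unthinned, Csf1r was open in 28.0% and 31.1%, Cd27 in 21.3% and 22.8%, Cd48 in 11.5% and 15.6% and Csf3r in 9.05% and 9.91%. Over the 7 genes, a thinned cell had on average 0.70 open loci in set 1 and 1.02 in set 2, and 48.5% and 31.1% of cells had none open.

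Peak by peak, the differences were uneven within a gene. Of the 24 peaks with at least 20 counts, 18 were lower and 6 higher in set 1, with a median log2 ratio of CPM + 1 of -0.55, against 0.020 over all 79625 peaks tested. The number 2-fold or more lower in set 1 was 6, namely 4 at Flt3, 1 at Cd34 and 1 at Cd48, where 6.85% of all peaks were, and 0 were 2-fold or more higher, where 5.2% of all peaks were. Promoter peaks, those within 1000 bp of a protein-coding start, varied less in the table as a whole: 1.81% of them were 2-fold or more lower in set 1, against 8.13% of other peaks, and 1.48% and 6.15% were 2-fold or more higher. Of the members' tested peaks, 1 of 6 promoter peaks and 5 of 18 other peaks were 2-fold or more lower.

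At Flt3 (ENSMUSG00000042817.15, GRCm38 chromosome 5, 147330741 to 147400489, minus strand), 12 peaks were found. The promoter peak, at 147399684 to 147401405, lay over exon 1 and the start of intron 1 and also overlapped the gene Gm26597. This peak had 27.7 CPM in set 1 (24.95 to 30.7) and 53.6 in set 2 (49.1 to 58.3). It held 36.5% of the counts of the locus in set 1 and 37.1% in set 2, so promoter and remaining peaks differed alike, with log2 ratios of -0.95 (-1.15 to -0.75) and -0.91 (-1.06 to -0.76). It had a count in 144 of 818 cells of set 1 and 185 of 636 cells of set 2, with 2.51 and 2.84 counts per open cell. With so few counts per cell, a change in accessibility appears mainly as a change in the number of open cells.

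The strongest differences at Flt3 were at peaks deep in the gene. The peak 34.1 kb downstream of the start, over exon 9 and part of intron 9 of 24 exons, had 8.81 CPM in set 1 (7.28 to 10.6) and 27.9 CPM in set 2 (24.7 to 31.4), a log2 ratio of CPM + 1 of -1.56. The peak at 59.3 kb, over exon 20 and both adjoining introns, had 6.67 CPM in set 1 (5.34 to 8.22) and 22.9 in set 2 (20.0 to 26.1), with -1.64. Both carried the word CATTCC in their central 300 bases and neither carried GAGGAA there. The peak at 60.7 kb in intron 20 had 1.07 CPM (0.59 to 1.80) and 4.28 (3.08 to 5.78), with -1.35 on 56 counts, and its centre held GAGGAA 3 times.

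Of the 9 tested peaks of the gene, 6 were lower and 3 higher in set 1, each with an interval of the ratio that excluded 0. Those named next were chosen after their values were seen. The peak at 7.7 kb in intron 1 was lower in set 1, with a log2 ratio of CPM + 1 of -0.65. In contrast, the peak at 11.4 kb in intron 1 had 10.3 CPM in set 1 (8.67 to 12.2) and 6.82 in set 2 (5.29 to 8.67), with a log2 ratio of CPM + 1 of 0.54. The peaks 2.1 kb upstream of the start and at 68.7 kb in intron 23 were also higher in set 1, with 0.54 and 0.81, the latter on 53 counts. Of the 24 tested peaks of the 7 genes, these 3 had an interval of the ratio above 0. The share of all tested peaks whose interval excluded 0 was not computed. Neither this count nor that of the 9 Flt3 peaks can therefore be set against the table as a whole. A count was found at 11.4 kb in 59 cells of set 1 and 33 of set 2. The numbers were 43 and 23 upstream and 19 and 7 at 68.7 kb. As shares of all cells, the 11.4 kb peak had intervals of 5.54 to 9.21% and 3.60 to 7.21%, which overlapped. The intervals of the upstream and 68.7 kb peaks overlapped too, as did those of the 7.7 kb peak. The higher level in set 1 was thus seen in counts and not resolved in numbers of cells. The peaks at 11.4 kb and 2.1 kb upstream each held AGATAA and no GAGGAA in their centres, whereas that at 68.7 kb held none of the words searched. The 17 tested peaks within 100 kb outside the Flt3 window had a median log2 ratio of -0.0033, from -0.66 to 0.74, and none of them was past 2-fold.

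**Figure D2:**
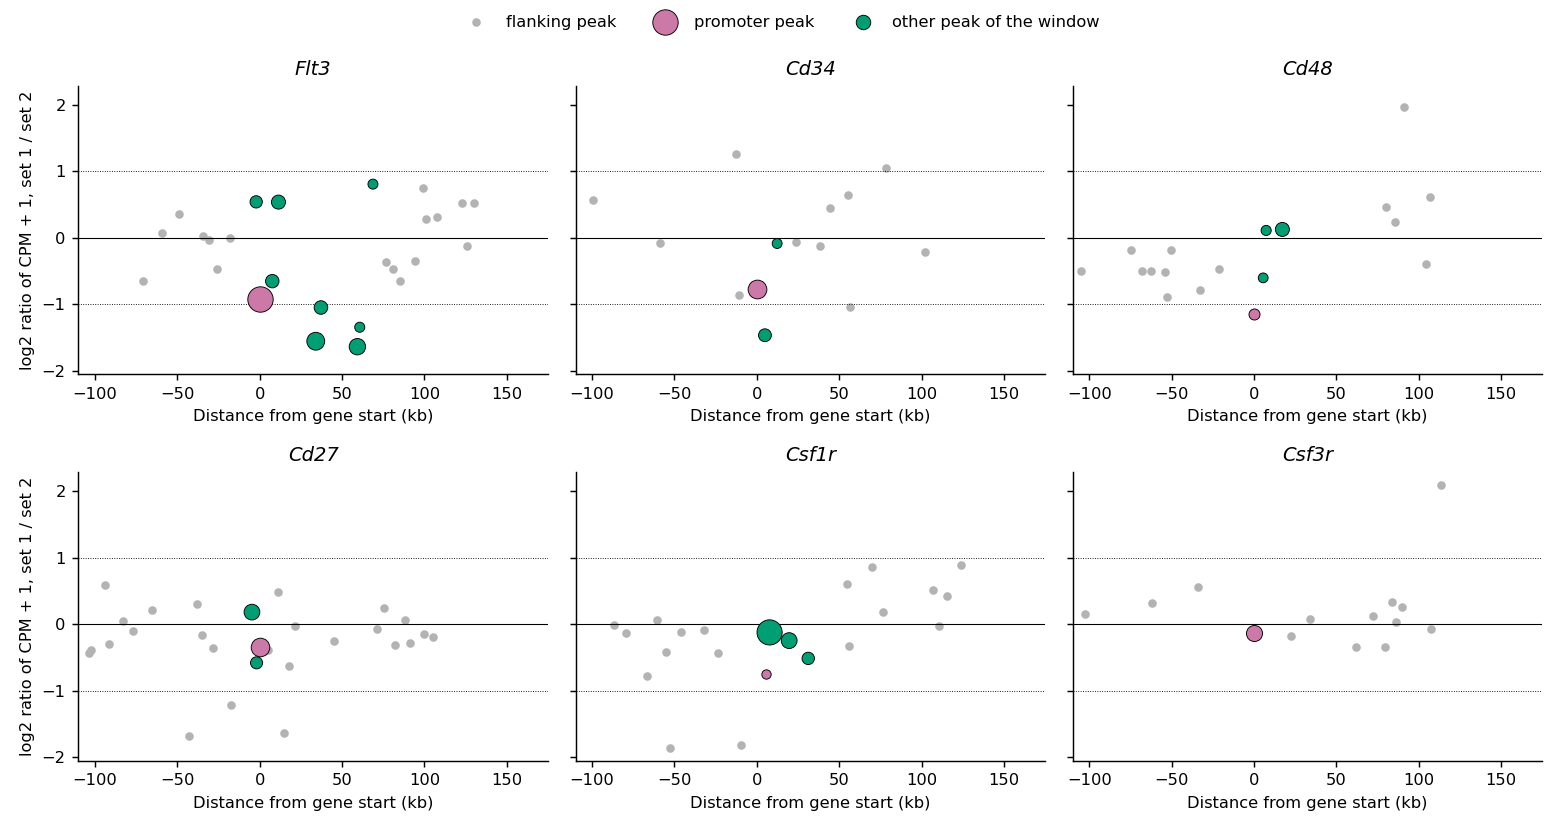
Log2 ratio of CPM + 1 of set 1 over set 2 for each peak with at least 20 counts, against the distance of its centre from the gene start in kb, in the direction of transcription. Purple circles are promoter peaks, green circles the other peaks of the window, both larger with more counts, and grey points are peaks within 100 kb outside the window; dotted lines mark 2-fold. At Flt3 the peaks at 34.1 and 59.3 kb lie at -1.56 and -1.64 and the grey points between -0.66 and 0.74.

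Cd34 (ENSMUSG00000016494.9, chromosome 1, 194938819 to 194961279, plus strand) had 5 peaks, 3 of them with at least 20 counts. The promoter peak, at 194938352 to 194939697 over exon 1, had 14.5 CPM in set 1 (12.5 to 16.7) and 25.5 CPM in set 2 (22.4 to 28.8), a log2 ratio of -0.81 (-1.09 to -0.54). The intron 1 peak at 4.9 kb had 3.37 CPM (2.45 to 4.53) and 11.1 (9.11 to 13.4), a log2 ratio of CPM + 1 of -1.47. This element, which holds GAGGAA 2 times and AGATAA once in its centre, was open in 22 cells of set 1 and 48 of set 2. The exon 4 peak at 12.3 kb was at 2.15 and 2.34 CPM, which did not differ beyond counting error. Flanking peaks, 11 in number, had a median of -0.066 and ranged from -1.05 to 1.26.

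At Cd48 (ENSMUSG00000015355.13, chromosome 1, 171682009 to 171705258, plus strand) the interval of the ratio excluded 0 at the promoter and at 1 intron 1 peak, both on few cells. Its promoter peak, at 171681716 to 171682253, also overlapped the gene A630035G10Rik. This peak had 2.15 CPM in set 1 (1.43 to 3.10) and 6.01 CPM in set 2 (4.57 to 7.75), a log2 ratio of -1.49 (-2.19 to -0.81). The 3 other peaks together had 13.3 CPM (11.4 to 15.5) and 13.5 (11.3 to 16.1), with a log2 ratio of -0.023 (-0.36 to 0.31). The 2 intervals did not overlap, so with all counts the promoter and the summed other peaks of Cd48 differed beyond counting error. When a peak was counted at most once in a cell, the intervals were -2.55 to -0.64 and -0.66 to 0.27 and met at their ends. The promoter was sparse, with 28 counts in 15 cells of set 1 and 59 counts in 33 cells of set 2, and its share of locus counts was 13.9% and 30.7%. At equal depth 0.80% (0.29 to 1.74%) and 1.964% (0.98 to 3.49%) of cells had a count there, and these intervals overlapped. The intron 1 peak at 5.5 kb, named after its values were seen, had 1.53 CPM in set 1 (0.94 to 2.37) and 2.85 in set 2 (1.90 to 4.12), on 48 counts, and the interval of its ratio lay just below 0. It had a count in 12 cells of set 1 and 16 of set 2. These shares of all cells, 1.47% (0.76 to 2.55%) and 2.52% (1.44 to 4.05%), had overlapping intervals. The exon 3 peak at 17.2 kb, the largest of the gene, had 9.195 CPM (7.62 to 11.0) and 8.35 (6.64 to 10.4).

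Cd48 lies among other SLAM-family genes, with Slamf7, Slamf1, Ly9 and Cd244a within 100 kb of its window. The 14 flanking peaks had a median log2 ratio of -0.43. The 9 tested peaks upstream of Cd48 were all lower in set 1, from -0.89 to -0.18, whereas 4 of the 5 downstream were higher, up to 1.97 at a peak 91281 bp from the Cd48 start. Over the whole locus Cd244a, which encodes the receptor of CD48, had a log2 ratio of -0.79 (-0.998 to -0.59).

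Cd27 (ENSMUSG00000030336.14, chromosome 6, 125232622 to 125237010, minus strand) lies within Vamp1 on the opposite strand, and its peaks cannot be assigned to one gene. The promoter peak had 16.7 CPM in set 1 (14.6 to 19.1) and 21.6 CPM in set 2 (18.8 to 24.7), a log2 ratio of -0.37 (-0.65 to -0.090). The peak 1.9 kb upstream had 4.29 CPM (3.24 to 5.57) and 6.925 (5.38 to 8.78), whereas that 4.7 kb upstream had 12.95 (11.1 to 15.1) and 11.3 (9.30 to 13.6). The intervals of the farther peak overlapped between the sets. The size of the locus ratio depended on the window: with 2000 bp upstream in place of 5000 bp, the log2 ratio of the locus was -0.46 (-0.70 to -0.21). The 25 flanking peaks of Cd27 had a median log2 ratio of CPM + 1 of -0.19 and ranged from -1.68 to 0.59.

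Csf1r (ENSMUSG00000024621.16, chromosome 18, 61100598 to 61132149, plus strand) was open mainly within the gene. Its intron 1 peak 7.7 kb from the annotated gene start, at 61107336 to 61109321, held 68.1% of the counts of the locus in set 1 and 63.2% in set 2. It had 36.6 CPM (33.4 to 40.1) and 40.0 (36.2 to 44.2), with an interval of the ratio that included 0, and it was open in 21.3% and 23.3% of cells. The promoter peak at 5.3 kb, over exon 1 of the principal transcript, was small, with 12 counts in 5 cells of set 1 and 22 counts in 11 cells of set 2. Its log2 ratio was -1.28 (-2.43 to -0.21), and with each peak counted once per cell the interval reached past 0. The peaks at 19.6 kb over exon 10 and at 31.2 kb over exon 21 had log2 ratios of CPM + 1 of -0.25 and -0.52, the latter also inside Hmgxb3. The 18 flanking peaks of Csf1r had a median of -0.053 and ranged from -1.86 to 0.89.

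Csf3r (ENSMUSG00000028859.14, chromosome 4, 126024550 to 126044440, plus strand) had promoter peaks and no other. The main one, at 126023606 to 126025224, held 97.0% of the counts of the locus in set 1 and 97.8% in set 2, with 12.4 CPM (10.6 to 14.5) and 13.7 (11.4 to 16.2). The second, near an alternative start at 3.6 kb, had 5 and 3 counts. Neither the main peak nor the locus differed between the sets beyond counting error. The 13 flanking peaks of Csf3r had a median log2 ratio of CPM + 1 of 0.12 and ranged from -0.34 to 2.09.

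**Figure D3:**
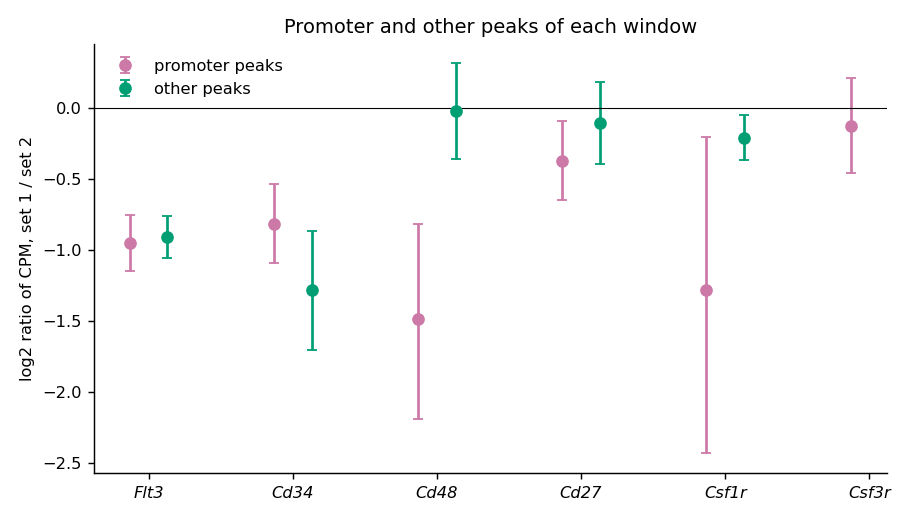
Log2 ratio of CPM of set 1 over set 2 for the summed promoter peaks (purple) and the summed other peaks (green) of each gene, with exact 95% intervals of the ratio that cover counting error only. Flt3 has -0.95 and -0.91, whereas Cd48 has -1.49 at the promoter and -0.023 elsewhere; Csf3r has promoter peaks alone and Il7r too few counts to plot.

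The words were counted in the 300 bases centred on each peak, and in all peaks of the table as a reference. GAGGAAGT, a longer PU.1 word, was present in 2 of the 32 member peaks, 1 at Flt3 and 1 at Csf3r, and in 6.68% of all peaks. Its core GAGGAA was found in 12 of 32 and 36.1% of all peaks, TGTGGT in 6 and 27.2%, AGATAA in 7 and 12.9%, and CATTCC in 6 and 14.1%. CCGGAAGT, the word of other ETS factors, was present in 1, the Cd48 promoter, and in 1.14% of all peaks. TGACTCA or TGAGTCA, the AP-1 words, was present in 1, the Il7r peak, and in 8.52% of all peaks. Of the 6 member peaks 2-fold or more lower in set 1, 3 held GAGGAA, which is part of GAGGAAGT, and 3 held CATTCC. Over whole peaks in place of 300 bases, GAGGAAGT was present in 4 member peaks and 11.1% of all peaks, TGTGGT in 13 and 44.6%, and the AP-1 words in 4 and 15.9%. The Cd48 stretch upstream of the start holds CATTCC and TGTGGT next to each other, which 12.6% and 14.04% of 32817 RefSeq promoter stretches of 250 bases hold.

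Whether these genes were open in the same cells was examined by Spearman's correlation of locus counts over thinned cells, within each set. Over the 15 pairs without Il7r, the median rho was 0.022 in set 1 (749 cells) and -0.00011 in set 2 (560 cells), with a range over both sets of -0.059 to 0.092. The central 90% of 57746216 pairs of genes on different chromosomes lay between -0.057 and 0.063 in set 1 and between -0.067 and 0.073 in set 2. Flt3 and Cd34 were both open in 15 cells of set 1, where 13.01 would be met if they were open independently, and in 28 of set 2, where that number was 27.2. All cells of a set share a library, and before thinning they also share depth: without thinning the median rho was 0.071 and 0.129. Such weak correlations in sparse counts were not taken as findings.

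**Figure D4:**
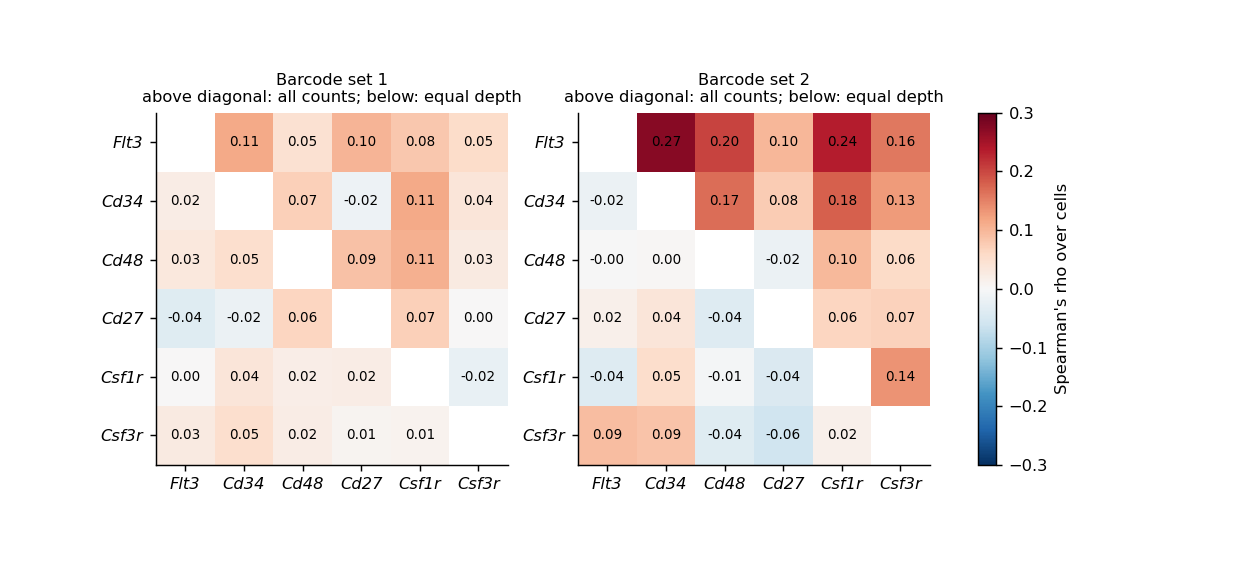
Spearman's rho over the cells of each barcode set between locus counts of each pair of genes, without Il7r; values above the diagonal are from all counts and those below from cells thinned to 4899 counts. Most pairs are near 0 below the diagonal, and Flt3 with Cd34 in set 2 goes from 0.27 with all counts to -0.02 at 4899 counts and is 0.12 at 9798 counts.

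Within a gene, promoter and remaining peaks of Flt3 had a rho of 0.030 in set 1 and 0.12 in set 2. The corresponding values were 0.076 and -0.030 for Cd34, 0.108 and 0.020 for Cd48, 0.023 and 0.050 for Cd27 and 0.097 and 0.044 for Csf1r. The central 90% of all genes with both kinds of peak ran from -0.047 to 0.079 and from -0.054 to 0.090. Some of these values changed sign with depth: at 9798 counts per cell Cd48 had -0.037 in set 1 and -0.014 in set 2, and Cd34 had 0.035 in set 2. The genes on other chromosomes whose counts followed those of Flt3 most closely were Kif1bp, Ampd3 and Rgs18, with mean rho over the sets of 0.12, 0.11 and 0.11. For Cd34 they were B3gntl1, Stn1 and Traf6, for Cd48 Dync2h1, Atad1 and D6Wsu163e, and for Cd27 BC005537, Ermp1 and Jmy. For Csf1r they were Dctpp1, Snn and Gpr146, and for Csf3r Fgfr3, Gna14 and Mip. All of these correlations were weak, with mean rho of 0.098 to 0.138, and were the highest of 10363 to 10731 genes compared.

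Genes of other receptors, and of ligands and partners of the 7 genes, were examined as loci. The other receptors were 36 genes, mostly receptors of cytokines and growth factors, with Notch1, Notch2 and chemokine receptors among them. Of these, 35 had at least 20 counts, 21 of them lower and 14 higher in set 1. Their median log2 ratio was -0.058, with 1 past 2-fold in each direction. The lowest were Il2rb with -1.73 on 21 counts, Csf2rb2, a beta chain of the interleukin-3 receptor, with -0.63 (-1.02 to -0.24) and Lifr, the receptor for LIF, with -0.58 (-0.77 to -0.39). Among the highest were Osmr, the oncostatin M receptor, with 1.21 (0.88 to 1.55) and Epor, the erythropoietin receptor, with 0.61 (0.37 to 0.86). The ratios of these receptors thus lay on both sides of 0. Of 19 ligands and signalling partners tested, 7 were lower and 12 higher in set 1, with a median of 0.0063. Il34, a ligand of Csf1r, was the one past 2-fold, with 1.34 (0.53 to 2.21) on 74 counts.

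Markers of other cell types were compared between the sets as well. LT-HSC genes, 14 of 15 with at least 20 counts, had a median log2 ratio of 0.28, with 12 higher in set 1, among them Slamf1 with 0.88 and Procr with 0.78. The 2 lower in set 1 were Fgd5 with -0.33 and Meis1 with -0.14, both with intervals below 0. Multipotent and lymphoid-primed progenitor genes had a median of -0.091, with 9 of 12 lower in set 1, among them Satb1 with -0.81 and Ikzf1 with -0.55. Summed levels of LT-HSC genes were 1497 CPM in set 1 and 1323 in set 2, and those of the progenitor genes 1088 and 1235. Megakaryocyte markers had a median of 0.26 over 6 genes, and erythroid markers 0.13 over 4.

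Myeloid markers had a median log2 ratio of -0.062 over 10 genes, with summed levels of 187.6 CPM in set 1 and 200.9 in set 2. B cell markers had -0.19 over 6 genes, with 205.4 and 197.9 CPM, and T and NK cell markers -0.19 over 4, with 191.0 and 226.2. Genes of other tissues had 0.021 over 8 genes and the reference genes -0.036 over 8. The part of any of these cell types in the differences at Flt3, Cd34 and Cd48 was not tested, and the proportion of cells of a type cannot be told apart from accessibility per cell in these sums.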

How the data were processed

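Single-cell ATAC-seq of sorted mouse LT-HSCs was analyzed from 1 of 2 deposited tables. The authors processed the reads with Cell Ranger ATAC (version 1.2.0 per the submitters' processing notes, which name mm10 and GRCm38) and deposited raw counts of transposase cut sites per peak and cell barcode, with no normalization. Whether peaks were called on pooled cells or doublets were removed is not given in the sources used here.

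From these counts, CPM of each barcode set and log2 ratios of set 1 over set 2 were computed, with exact Poisson intervals and an exact conditional binomial interval of the ratio. The call rule was a log2 ratio of CPM + 1 of at least 1 in size for peaks, and of CPM for gene loci, with at least 20 counts. No cell was removed and no doublet caller was run. For measures per cell, cells were thinned without replacement to 4899 counts, the 10th percentile. Peaks were placed with GENCODE M21 on GRCm38 and read as counted from 0 in the file, then printed as counted from 1. Named peaks were all promoter peaks, the 2 other peaks with most counts and up to 3 with the largest ratios among those with at least 50 counts. A gene and a sequence that would be named are not reported here. Python 3.11.15, numpy 2.4.6, scipy 1.17.1, pandas 2.3.3 and matplotlib 3.10.9 were used, and the code was tested on simulated data. The genes, lists and comparisons were chosen with earlier results of these data known. Alternatives were each peak counted once per cell, another size factor, other windows, depths, pseudocount and minimum counts.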

Additional observations from a re-analysis of the deposited data

How the results depend on the processing

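All log2 ratios of loci, promoter peaks and other peaks of the 6 genes with at least 20 counts kept their direction under the alternatives run, except the other peaks of Cd48, which ranged from -0.19 to 0.15 with intervals that included 0. The locus ratio ranged from -0.94 to -0.86 at Flt3 and from -0.97 to -0.75 at Cd34. At Cd27 it was -0.46 with 2000 bp upstream, since that window leaves out the peak 4.7 kb upstream. The number of members' peaks 2-fold or more lower in set 1 was 2 with a pseudocount of 5 CPM, against 6 with 1 CPM. A larger pseudocount shrinks the ratio of peaks with few counts. The share of all peaks past 2-fold is given for 1 CPM only, so the 2 peaks cannot be set against it. The median correlation between genes was 0.071 in set 1 and 0.129 in set 2 without thinning and -0.0012 in set 1 at 2 times the thinned depth, and the cause was not tested. Shares of open cells rose with depth by construction, and set 2 stayed above set 1 in each of these 6 genes. All log2 ratios moved down by 0.0086 with median-of-ratios size factors. No paired analysis was possible because each group had 1 sample, and for the same reason no replicate could be left out. At this depth, Il7r, the Csf1r promoter and the Cd48 promoter rested on few cells.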
